A study of Mus musculus with 4 samples.

Results

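In mouse colon, 187 genes had AOM/DSS over untreated ratios of opposite direction in the wild type pair of libraries and the pair labelled Card9 knockout. In 109 of them the AOM/DSS library was at least 2-fold below the untreated library in wild type (WT) and at least 2-fold above it in the libraries labelled Card9 knockout, and in 78 the directions were exchanged. They were chosen by this rule from 44788 gene rows, of which 14873 had at least 50 raw counts in the higher library of each pair and are called measured below. The ratios were taken on log2(CPM + 1), where CPM is the count relative to the library size after TMM scaling (trimmed mean of M values). The added 1 CPM understates differences of low genes. Opposite directions are therefore what the rule asked for, and the values below describe these genes without testing them. Of the measured genes, 1.26% were opposite. With a pseudocount of 5 CPM, 54 and 39 genes met the rule, and with at least 200 counts 81 and 43 did.

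AOM/DSS models tumours of the inflamed colon: azoxymethane (AOM) mutates DNA, and dextran sulfate sodium (DSS) then injures the epithelium in cycles. The mice were on the C57BL/6 background. Treated mice, WT or labelled Card9-/-, received 10 mg/kg AOM by injection on day 1, then, starting 5 days later, 3 cycles of 7 days of 2% DSS in drinking water, and their colon was taken on day 100. Untreated mice of either label carry the label day 0, so treatment cannot be told apart from time. There was 1 library for each of the 4 groups, and the labels do not say how many mice it holds. With 4 libraries, a model with the interaction has 4 coefficients and 0 residual degrees of freedom, so the difference between both responses has no test and no p-value is given.

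Card9 relays signals from receptors of fungal cell walls. It went against its label, with 44 and 116 counts in untreated and AOM/DSS WT and 69 and 245 counts in the libraries labelled knockout, so every direction drawn from that label rests on the label alone. Libraries held 23022885 to 27706567 counts. The library of AOM/DSS mice labelled knockout was least like the rest, with Pearson correlations across measured genes of 0.815 to 0.851, while the others correlated at 0.936 to 0.949 among themselves. Rn18s-rs5, a gene for ribosomal RNA, held 2.86% of its counts and 5.20% to 7.11% elsewhere. Markers of colonocytes were present in all libraries at a summed 461 CPM there and 3842 to 9041 CPM in the others.

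Most genes of the first direction that fell into a gene list belong to the interferon response. Interferons bind receptors that activate transcription factors, Stat2 and Irf9 among them, that bind a promoter element called the interferon-stimulated response element, and the genes so switched on restrict viruses and tune the response itself. Genes of the second direction that fell into lists were led by those of B cells, the antibody-making lineage, which in the gut gather in lymphoid follicles. The rest of that direction included secreted and absorptive genes of the gut epithelium.

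Many of the interferon genes held a promoter motif that the rule did not use. The core of the response element was searched, on both strands, as GAAA, any 2 bases, GAAA in the 250 bases before each start site listed by RefSeq (GRCm38.p6). It was present for 16 of the 26 opposite genes of the interferon lists with a promoter entry (61.5%). Of measured genes of these lists that were not opposite, 13 of 29 held it (44.8%). It was present for 349 of 10468 measured genes (3.33%) and in 978 of 32851 promoters (2.98%). These lists hold interferon response genes, so the contrast with 3.33% describes the lists and not the opposite responses. Among the 16, Apol9a and Apol9b share the letters around the motif, as do Ifit3 and I830012O16Rik. Of the 109 genes of the first direction, 77 had an entry and 21 held the motif (27.3%), and outside the interferon lists 5 of 51 did (9.80%). These 5 were Gm12250, Gm14446, Gbp2b, Phf11b and Tenm4. Of them Gm14446 lies among listed Ifit genes, Gbp2b near Gbp3 and Phf11b near Phf11d, so the 9.80% includes relatives or neighbours of listed genes. Of the second direction, 2 of 41 held the motif (4.88%). Other motifs were searched the same way. The gamma-activated sequence (TTCNNNGAA, N any base) was present for 3 of 26 opposite interferon genes (11.5%) and 8 of 29 not opposite (27.6%). Of measured genes 7.29% held it. The octamer (ATGCAAAT) was present for 0 of 13 opposite B cell genes. The TCF/LEF core (CTTTGAT) was present for 2 of 77 genes of the first direction (2.60%), against 2.69% of measured genes, and for 1 of 3 opposite Wnt and stem genes. A match describes the letters and is not a measured binding site. The stretches below are shown because they belong to the opposite interferon genes with the motif that differed most between the labels, plus Isg15, added after its values were seen. Each has 120 bases, read 5′ to 3′ on the strand of the gene, and capitals mark the motif, which can overlap itself and reads TTTC, any 2 bases, TTTC when it lies on the other strand.
Apol9b (chr15:77728942-77729061, + strand): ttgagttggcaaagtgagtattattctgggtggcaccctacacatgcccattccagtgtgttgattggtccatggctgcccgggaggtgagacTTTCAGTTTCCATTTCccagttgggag
Apol9a (chr15:77411091-77411210, - strand): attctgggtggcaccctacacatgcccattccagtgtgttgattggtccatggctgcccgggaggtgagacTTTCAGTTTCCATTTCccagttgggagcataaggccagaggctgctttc
Gbp3 (chr3:142559914-142560033, + strand): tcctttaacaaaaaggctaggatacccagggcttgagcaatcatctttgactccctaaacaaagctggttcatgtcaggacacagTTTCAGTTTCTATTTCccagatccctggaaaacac
I830012O16Rik, named Ifit3b in RefSeq (chr19:34607730-34607849, + strand): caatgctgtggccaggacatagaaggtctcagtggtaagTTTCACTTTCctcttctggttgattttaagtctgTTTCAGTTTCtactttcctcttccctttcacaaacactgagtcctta
Isg15 (chr4:156200829-156200948, - strand): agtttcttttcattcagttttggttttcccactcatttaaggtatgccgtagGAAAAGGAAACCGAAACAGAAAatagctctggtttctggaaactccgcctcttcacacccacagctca
In the 16 genes the motif nearest the start began 14 to 222 bases before it, with a median of 70.5 bases.

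The design asks whether the AOM/DSS response differs with the genotype label. Of 691 genes past 2-fold in both pairs of libraries, 504 moved the same way and 187 (27.1%) opposite ways. In the WT pair 573 measured genes were at least 2-fold higher after AOM/DSS (3.85%) and 516 lower (3.47%), and in the pair labelled knockout 1793 were higher (12.1%) and 2409 lower (16.2%). The 109 genes of the first direction (0.733% of measured genes) are 21.1% of those lower in WT, above the 12.1% over all measured genes. They are 6.08% of those higher in the pair labelled knockout, against 3.47% of all measured genes lower in WT. The 78 of the second (0.524%) are 13.6% of those higher in WT, below the 16.2% of all measured genes that were lower in the other pair. They are 3.24% of those lower in the other pair, also below the 3.85% of all measured genes higher in WT. For comparison, 268 genes were higher in both pairs (1.8%) and 236 lower in both (1.59%). The first direction made up 58.3% of the opposite genes, and 68.3% when libraries were scaled by their totals alone, a scaling that moved the median difference of log2 ratios over all measured genes from -0.05 to 0.28. That difference, the log2 ratio in the pair labelled knockout minus that in WT, had a median of 3.47 (2.12 to 7.84) in the first direction and of -4.02 (-8.28 to -2.06) in the second.

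**Figure D1:**
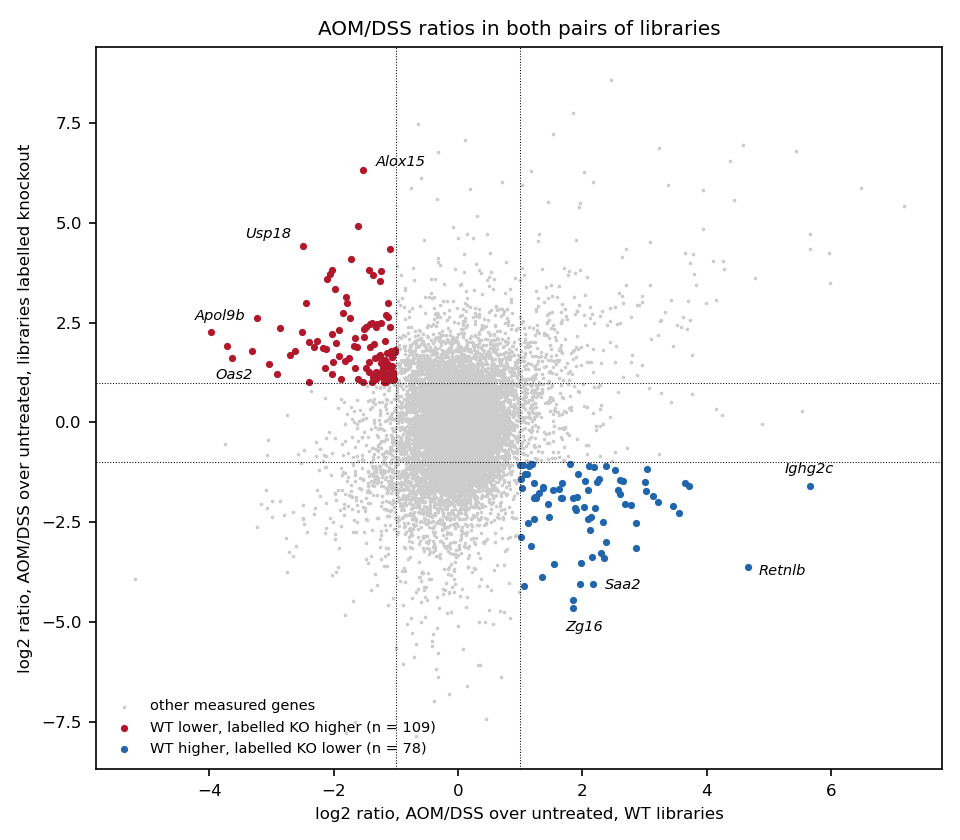
Each point is 1 of 14873 measured genes, placed by its AOM/DSS over untreated log2 ratio from log2(CPM + 1), WT on the horizontal and labelled knockout on the vertical axis. Dotted lines mark 2-fold. The 109 red and 78 blue genes fill the upper left and lower right corners, with Retnlb at 4.67 and -3.61.

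No single library was the odd one for most of the opposite genes. When the 4 values of a gene were ordered and divided at the widest of their 3 gaps, 98 of 187 genes (52.4%) fell into 2 libraries against 2, with untreated WT beside the AOM/DSS library labelled knockout and untreated labelled knockout beside WT AOM/DSS. Where a single library was set apart, it was most often the AOM/DSS library labelled knockout, in 47 genes (25.1%). WT AOM/DSS was apart in 20 (10.7%), the untreated library labelled knockout in 13 (6.95%) and untreated WT in 8 (4.28%). The remaining gene, Cyp2e1, divided by genotype label. Each AOM/DSS library was the highest or the lowest of the 4 more often than an untreated library, WT in 139 genes and labelled knockout in 135, against 52 and 48.

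Both directions shared the crossed arrangement but differed in which library stood alone. In the first direction 55 of 109 genes were crossed (50.5%) and 37 had the AOM/DSS library labelled knockout highest and apart (33.9%), while 13 had WT AOM/DSS lowest and apart. In the second, 43 of 78 were crossed (55.1%), 12 had the untreated library labelled knockout highest and apart and 10 had the AOM/DSS library labelled knockout lowest and apart (12.8%). Between the untreated libraries, the one labelled knockout was at least 2-fold lower in 57 of the 109 genes, against 2.78% of all measured genes. It was at least 2-fold higher in 63 of the 78, against 3.79% of all measured genes. Between the AOM/DSS libraries, the one labelled knockout was higher in 103 of the 109, against 9.53% of all measured genes. It was lower in 67 of the 78, against 12.2% of all measured genes. These counts use the libraries that chose the genes, so nothing is read from them. At 4-fold in each pair 12 and 18 genes were left, and 75% and 77.8% of them were crossed.

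**Figure D2:**
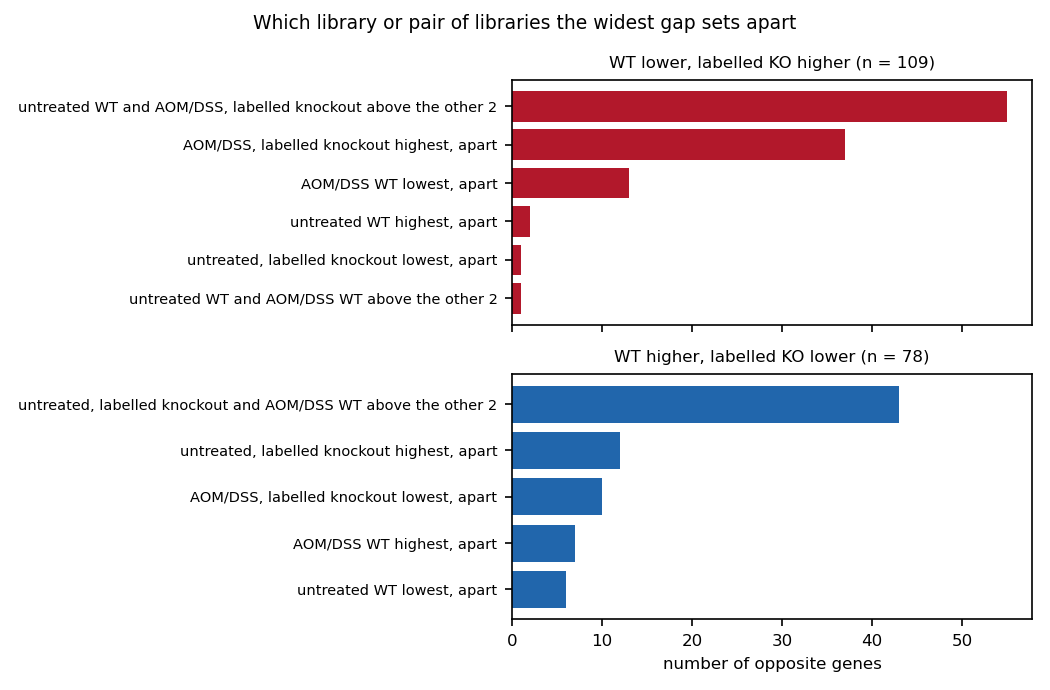
Bars count the opposite genes by the library or pair of libraries that the widest gap in log2(CPM + 1) sets apart, for both directions. The crossed arrangement holds 55 of 109 and 43 of 78 genes, and the AOM/DSS library labelled knockout alone holds 37 and 10.

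Interferon response genes were the largest listed group, lower after AOM/DSS in WT and higher in the libraries labelled knockout. Of 59 measured genes of this list, 32 were opposite, all in the first direction, which is 54.2% of the list and 29.4% of the 109 genes, while the list is 0.397% of measured genes. In WT 37 of the 59 were at least 2-fold lower and 1 higher, and in the pair labelled knockout 48 were higher and 1 lower. The list's median log2 ratio was -1.66 in WT and 1.88 in the other pair, against 0.02 and -0.01 over all measured genes. With 2 interferon-induced GTPases, Gbp3 and Gbp6, 34 genes are described here. Untreated WT and the AOM/DSS library labelled knockout were both above the other 2 in 34 of 34, an order that 104 of all 109 genes of this direction had and that the rule fixes in part. In bulk tissue, fewer cells of a type and less RNA per cell cannot be told apart.

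Regulators of the response were among them. Usp18 (chromosome 6, 121245906 to 121270917, GRCm38) removes the ubiquitin-like Isg15 from proteins and damps interferon receptors. It stood at 48.5 CPM in untreated WT, 7.79 CPM in WT AOM/DSS, 9.44 CPM in the untreated library labelled knockout and 221 CPM in the AOM/DSS library labelled knockout. Usp18 was thus 6.22-fold lower in WT (95% interval 5.29 to 7.35). In the other pair it was 23.4-fold higher (20.4 to 27.1), and such intervals cover counting error only. Stat2, a transducer of the receptor, was at 136, 58.1, 77.8 and 202 CPM in the same order of libraries. Irf9, its DNA-binding partner, named after its values were seen, had 99.9, 47.6, 55.8 and 130.0 CPM. The responses of both were small, 2.10-fold to 2.59-fold in each pair. Lgals3bp, a secreted galectin-binding protein, was abundant at 862, 272, 325 and 835 CPM.

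Antiviral effectors followed the same order of libraries. Isg15, the protein tag itself, and Oas2 were chosen after their values were seen. Isg15 was at 101, 13.0, 27.2 and 145 CPM, again in the order untreated WT, WT AOM/DSS, untreated and AOM/DSS labelled knockout. Oasl2 and Oas2 belong to the oligoadenylate synthetase family, which senses viral RNA. Oasl2 stood at 361, 47.0, 118 and 273 CPM and Oas2 at 166, 12.5, 34.3 and 107 CPM. In both, untreated WT was the highest library. Ifit2 and Ifit3 encode proteins that bind foreign RNA, and their highest library was AOM/DSS labelled knockout, with Ifit2 at 59.0, 17.2, 14.7 and 268 CPM and Ifit3 at 47.1, 7.84, 10.5 and 90.8 CPM. Slfn4, a Schlafen gene of myeloid cells, was at 328, 86.3, 87.6 and 438 CPM, and Ifi44 at 54.3, 4.91, 8.75 and 58.4 CPM.

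The largest WT response of the 34 genes was that of an Apol9 gene, from a family related to apolipoprotein L. Apol9b (chromosome 15, 77729047 to 77736382) was 21.2-fold lower in WT (16.3 to 28.1), at 56.5 and 2.66 CPM, and 5.23-fold higher in the libraries labelled knockout (4.48 to 6.15), at 8.29 and 43.4 CPM. Apol9a was at 73.3 and 4.68 CPM in WT and at 15.9 and 62.7 CPM in the other pair. Of the 50-base stretches of Apol9b transcripts 52.3% occur in Apol9a, of those of Ifit3 51.2% in Ifit3b and of those of Oas1a 57.6% in Oas1g, so the counts of these genes may be divided among copies.

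Listed GTPases of the guanylate-binding family, which attack membranes around microbes, divided differently. All 17 measured GTPases of the list were at least 2-fold higher in the pair labelled knockout, but in WT 2 were lower, 1 was higher and the median log2 ratio was -0.08. Gbp6 was at 25.4 and 7.70 CPM in WT and at 7.04 and 241 CPM in the other pair, a 34.2-fold difference (29.1 to 40.4). Gbp3 stood at 54.7, 12.4, 20.2 and 279 CPM in the usual order. In both, the AOM/DSS library labelled knockout was set apart. Gbp2b, near Gbp3 but in none of the lists, was opposite too and was named after its values were seen. It stood at 4.64, 0.275, 2.85 and 8.90 CPM in the usual order, with 6 counts in WT AOM/DSS. Of the 50-base stretches of Gbp6, 70.7% occur in other genes.

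Listed genes of antigen display did not share the WT response. Of 19 measured genes of MHC class I and the immunoproteasome 15 were higher in the pair labelled knockout, 0 were opposite and the WT median was -0.05. The 5 macrophage markers, none at 0, summed to 154 and 117 CPM in untreated and AOM/DSS WT and to 124 and 355 CPM in the pair labelled knockout. Their part in the interferon result was not tested. One of them, Emr1, which encodes the F4/80 antigen of mouse macrophages, was itself opposite at 20.9, 9.22, 17.3 and 38.1 CPM.

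**Figure D3:**
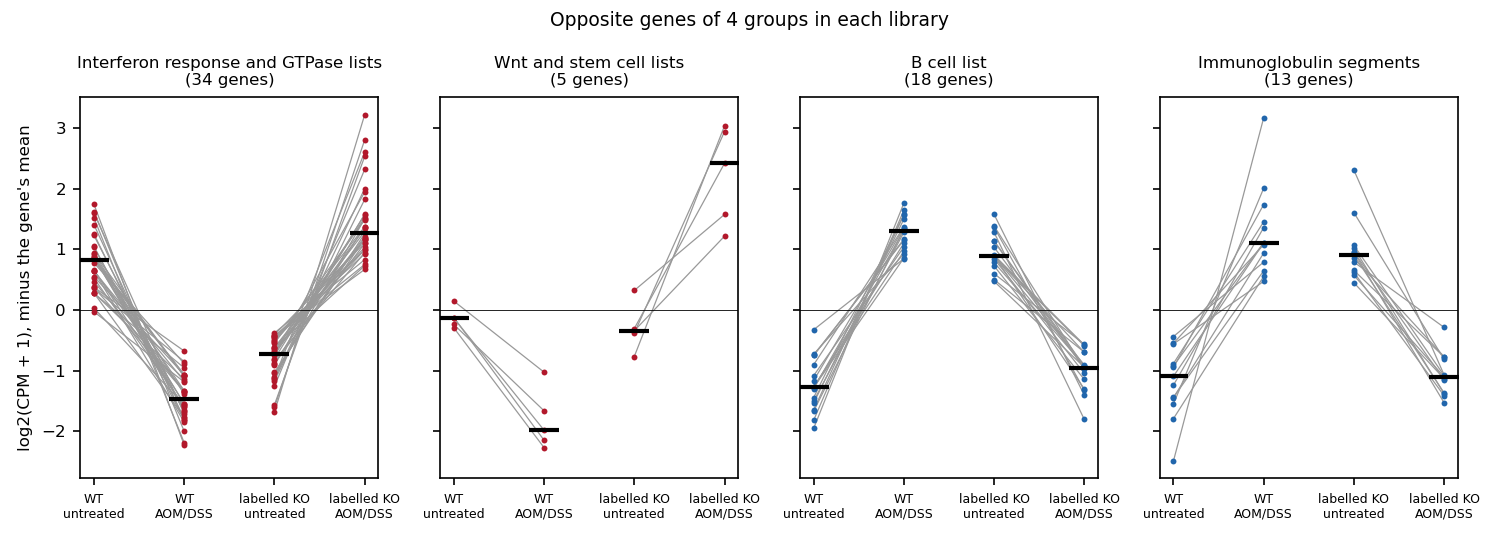
Points are log2(CPM + 1) of each opposite gene minus its mean over the 4 libraries, grey lines join untreated and AOM/DSS libraries of a label, and black bars are medians. The 34 interferon genes are high in untreated WT and in AOM/DSS labelled knockout, the 5 Wnt and stem cell genes mainly in the latter, and the 18 B cell genes and 13 immunoglobulin segments in the other 2 libraries.

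A few stem cell and Wnt genes had the same direction, with both AOM/DSS libraries away from untreated libraries that differed little. Wnt signals keep stem cells at the base of the crypt dividing. Of 21 measured Wnt feedback genes and targets 3 were opposite, with 4 lower and 1 higher in WT and 16 higher and 1 lower in the pair labelled knockout. Of 15 stem and crypt genes 3 were opposite. Lgr5 (chromosome 10, 115450314 to 115587780), the receptor that marks crypt stem cells, was at 9.80 and 1.74 CPM in untreated and AOM/DSS WT and at 9.16 and 101 CPM in the pair labelled knockout. The untreated libraries were nearly level, and WT AOM/DSS lay 5.62-fold below (3.98 to 8.14) while the other AOM/DSS library lay above its untreated counterpart (9.55-fold to 12.8-fold). Axin2, a scaffold that degrades beta-catenin and a Wnt target, was at 40.1, 10.4, 35.5 and 241 CPM. Tnfrsf19, a receptor of the TNF family, had 9.05, 1.47, 5.43 and 89.0 CPM. Ascl2, a transcription factor of these stem cells, stood at 4.76, 1.15, 7.50 and 19.3 CPM, and Bambi, a decoy receptor for TGF-beta signals, at 8.81, 3.35, 5.98 and 19.6 CPM. The AOM/DSS library labelled knockout was set apart in 4 of these 5 genes and WT AOM/DSS in Ascl2. Ascl2 missed the rule with a pseudocount of 5 CPM and with a minimum of 200 counts, and Bambi missed it with 5 CPM. In 0 of the 5 did the untreated libraries differ by 2-fold, against 30 of the 34 interferon genes.

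Genes of division were opposite too, few of them in the lists. Among 25 listed replication genes 2 were opposite and among 23 listed mitosis genes 1. In WT the medians of both lists were -0.62 and -0.58, with 3 and 1 members at least 2-fold lower, and in the pair labelled knockout 1.17 and 1.56. Mcm5, a subunit of the replicative helicase, was at 80.1 and 36.4 CPM in WT and at 59.98 and 159.8 CPM in the other pair. Uhrf1, which maintains DNA methylation, stood at 52.5, 17.5, 35.3 and 72.3 CPM in the usual order, with WT AOM/DSS apart. Mybl2, a cell cycle transcription factor, had 11.9, 4.72, 6.35 and 29.2 CPM. Uhrf1 and Mybl2 missed the rule with a pseudocount of 5 CPM. Further genes of replication or mitosis in none of the lists were opposite in this direction and were named after their values were seen. Among them were Clspn, Pola1, Hells, Chtf18, Esco2 and Kntc1, with Clspn at 20.3, 8.44, 14.1 and 40.3 CPM. Bmp7, a secreted BMP ligand, was at 19.9, 6.33, 17.2 and 78.9 CPM, the single opposite gene among 14 of its pathway. Hoxd11, 1 of 7 posterior Hox genes and the single one opposite, was at 4.24, 1.60, 1.61 and 7.89 CPM.

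The largest difference of all in this direction was that of Alox15. This lipoxygenase (chromosome 11, 70344147 to 70390538) oxidises polyunsaturated fatty acids. Its counts were 61 and 4 in untreated and AOM/DSS WT and 22 and 5039 in the libraries labelled knockout, or 2.42, 0.183, 1.01 and 159 CPM. It was 13.2-fold lower in WT (4.90 to 50.0) and 157-fold higher in the other pair (104 to 251). Alox12, a related lipoxygenase within 500 kb of it, was at 2.90, 0.825, 1.84 and 56.2 CPM. Both responses in WT rest on few counts and missed the rule with a pseudocount of 5 CPM or a minimum of 200 counts. Rnf213, a giant ubiquitin ligase in none of the lists, was the most abundant gene of this direction at 686, 257, 295 and 1640 CPM.

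Other genes of this direction outside the lists were picked after their values were seen. Siglec1, a sialic acid receptor of macrophages, stood at 14.4, 3.85, 7.36 and 30.6 CPM, and Tbx3, a transcription factor, at 57.0, 25.6, 12.7 and 109 CPM. Muc6, a mucin of gastric glands, was at 3.85, 0.871, 0.598 and 19.5 CPM. Scd1, a fatty acid desaturase, and Cyp2e1, a cytochrome P450, were highest in untreated WT, Scd1 at 198, 84.0, 49.8 and 109.8 CPM and Cyp2e1 at 64.9, 23.3, 0.460 and 3.16 CPM. The 6 fat cell markers, none at 0, also had their highest sum there, 307 CPM against 125 CPM in WT AOM/DSS, 41.1 CPM in the untreated library labelled knockout and 15.6 CPM in its AOM/DSS counterpart. Their part in these values was not tested.

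**Figure D4:**
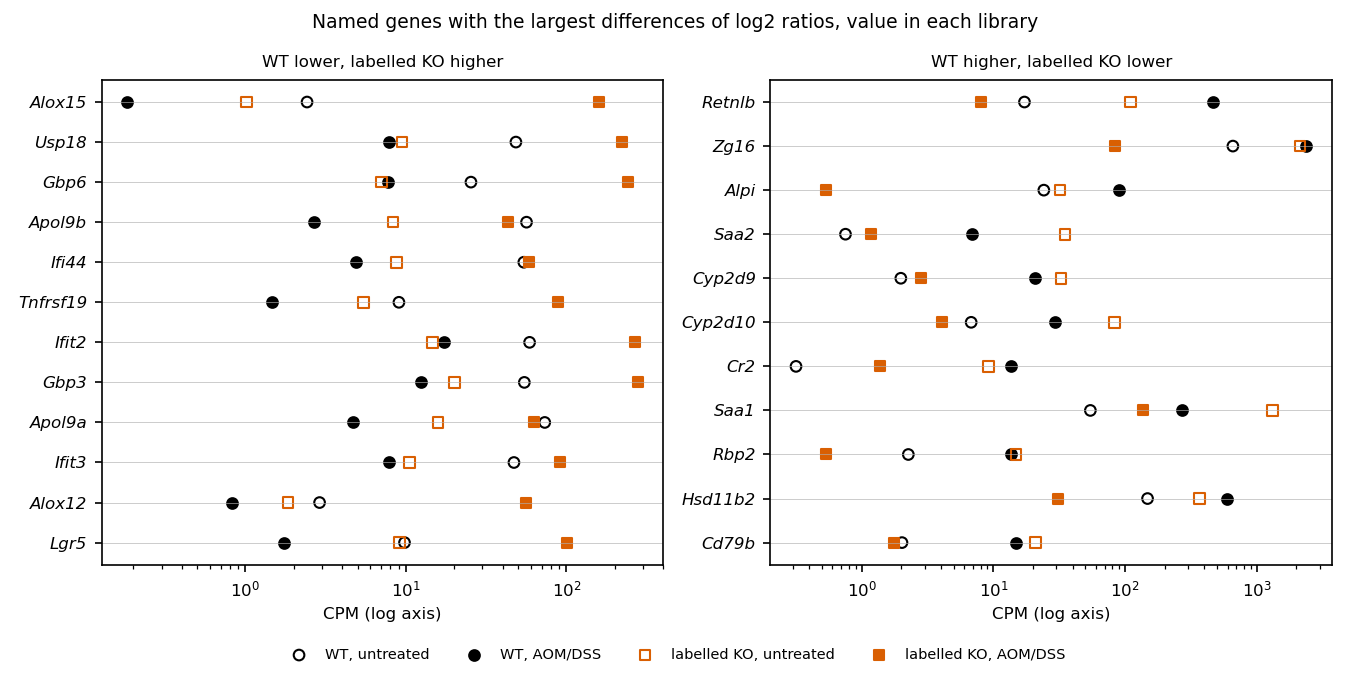
CPM in each library on a log axis for named genes with the largest differences of log2 ratios, 12 in the left panel and 11 in the right. Filled symbols are AOM/DSS libraries and open ones untreated, and Alox15 spans 0.183 to 159 CPM in the left panel while Retnlb spans 8.11 to 462 CPM in the right.

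B cell genes led the second direction, higher after AOM/DSS in WT and lower in the libraries labelled knockout. Of 30 measured genes for B cell surface and signalling 18 were opposite, which is 60% of the list and 23.1% of the 78 genes, while the list is 0.202% of measured genes. In WT 23 of the 30 were at least 2-fold higher and 0 lower, and in the other pair 0 were higher and 19 lower. The medians were 2.02 and -1.45. All 18 genes had both the untreated library labelled knockout and WT AOM/DSS above the other 2, as did 68 of all 78 genes of this direction, an order the rule fixes in part. In all 18 the label differed by at least 2-fold among untreated and among AOM/DSS libraries.

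The antigen receptor and its partners showed the range. Cd79b (chromosome 11, 106311341 to 106314562), a signalling chain of the receptor, was at 2.02 CPM in untreated WT, 14.8 CPM in WT AOM/DSS, 20.9 CPM in the untreated library labelled knockout and 1.77 CPM in its AOM/DSS counterpart. It was 7.30-fold higher in WT (5.42 to 10.01) and 11.8-fold lower in the other pair (8.94 to 15.9). Cr2, a complement receptor of mature B cells, rested on 8 counts in untreated WT and stood at 0.317, 13.6, 9.21 and 1.39 CPM. H2-Ob, a chain that modulates MHC class II loading in B cells, was at 4.84, 20.8, 17.2 and 2.97 CPM, the single opposite gene among 10 of class II presentation. Cxcr5, which guides B cells into follicles, was at 0.912, 14.7, 7.41 and 2.75 CPM and was 1 of 11 measured lymphoid tissue chemokines and receptors.

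Of 108 measured immunoglobulin and T cell receptor segments 13 were opposite (12.04%), all of them immunoglobulin. The 108 were chosen by the start of their names, so other genes named alike may be among them. In WT 34 of the 108 were higher and 18 lower, and in the other pair 8 were higher and 45 lower, so this mixed set did not move as a block. On chromosome 6, 8 kappa segments of the 13 lie in a run between 69226854 and 70723585, and a further one, Igkv1-135, lies outside it. The heavy chain constant genes were named after their values were seen: Ighd, carried by naive B cells, stood at 0.357, 15.0, 6.44 and 0.537 CPM, Ighm at 10.3, 58.2, 52.4 and 24.3 CPM, and Ighg2c at 3.93, 249, 36.9 and 11.6 CPM. Segments resemble each other, so single members are uncertain. Mzb1, a chaperone of antibody-secreting cells, was at 4.32, 18.2, 18.7 and 4.29 CPM, but 53.5% of its 50-base stretches are shared with SPATA24, which overlaps it.

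Markers of T cells and genes of neutrophils took a different course, while plasma cell markers followed those of B cells in part. The 6 B cell markers, none at 0, summed to 8.09 and 105.8 CPM in untreated and AOM/DSS WT and to 85.6 and 14.9 CPM in the pair labelled knockout, and all 6 are themselves among the opposite genes. The 4 plasma cell markers summed to 583, 585, 726 and 456 CPM in the same order and the 6 T cell markers to 27.9, 43.3, 34.2 and 56.3 CPM. Of the 4 plasma cell markers 3 were at least 2-fold lower in the pair labelled knockout. In WT 1 of them was higher, the opposite gene Mzb1. Of 20 measured T cell and cytotoxic genes 0 were opposite. Of 16 measured neutrophil granule and receptor genes 14 were higher in both pairs and 0 opposite. How much lymphoid tissue each piece of colon held was not tested.

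**Figure D5:**
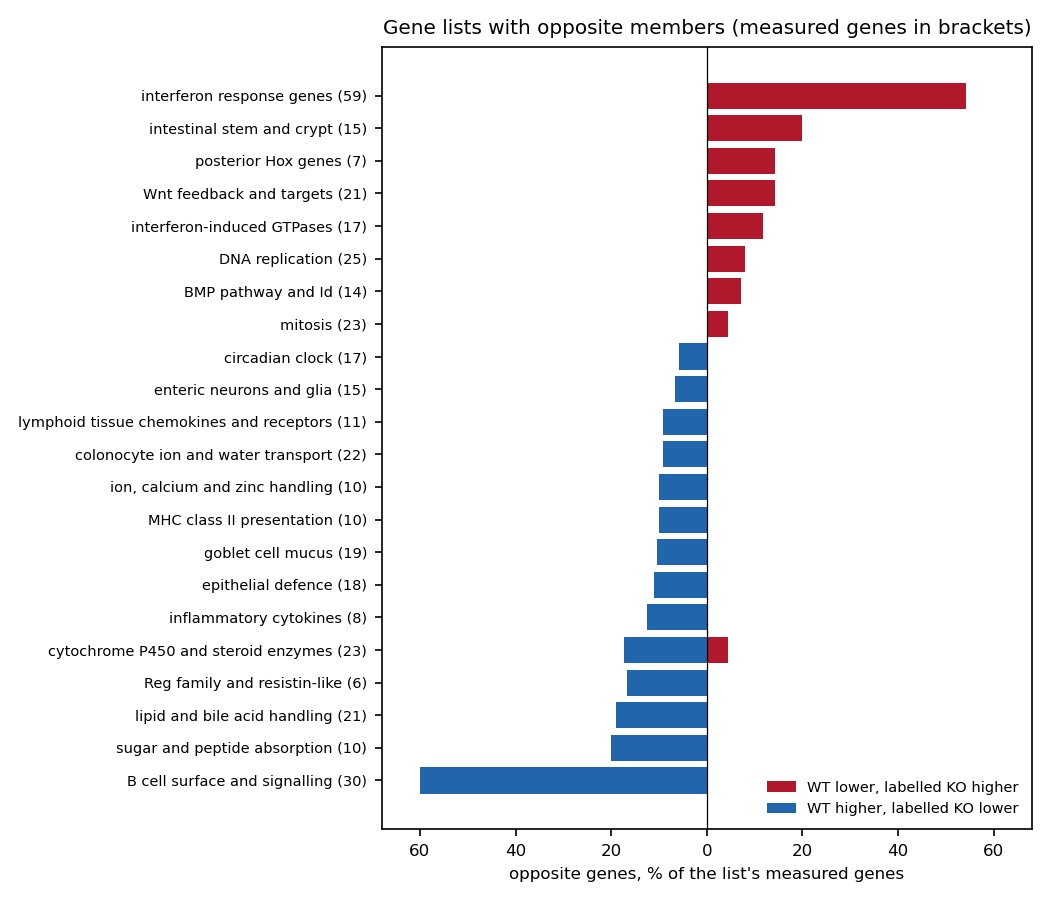
Bars give the share of each list's measured genes that were opposite, to the right for WT lower and labelled knockout higher and to the left for the reverse, for lists with at least 1 opposite gene. Interferon response genes reach 54.2% to the right and B cell genes 60% to the left.

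Secreted and defence genes of the epithelium included Retnlb, which had the largest difference of the 78 genes. Retnlb (chromosome 16, 48816856 to 48818892), a resistin-like bactericidal protein of goblet cells, was at 17.2 and 462 CPM in untreated and AOM/DSS WT and at 110.2 and 8.11 CPM in the pair labelled knockout. It was 26.9-fold higher in WT (24.4 to 29.6) and 13.6-fold lower in the other pair (11.9 to 15.5). Retnlb was the single opposite gene among 6 measured Reg family and resistin-like genes, of which 3 were higher in both pairs and 1 lower in both. Zg16 (chromosome 7, 127050156 to 127052675), a goblet cell lectin that binds bacteria, had the highest mean of all 78 genes, at 658, 2383, 2131 and 83.9 CPM. Tff3, a trefoil peptide of mucus, was at 223, 551, 532 and 156 CPM. In both goblet genes the untreated library labelled knockout and WT AOM/DSS were nearly level, and these were 2 of 19 measured goblet cell genes, of which 13 were lower in the pair labelled knockout. The 5 goblet cell markers, Zg16 among them and none at 0, summed to 15933 and 13471 CPM in WT and to 14518 and 1616 CPM in the other pair, and their part in these values was not tested.

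Serum amyloid genes were set apart by the untreated library labelled knockout. Saa1, an acute-phase protein (chromosome 7, 46740497 to 46743181), stood at 1318 CPM there, at 137 CPM in its AOM/DSS counterpart and at 54.5 and 271 CPM in untreated and AOM/DSS WT. Saa2 was at 34.9, 1.17, 0.754 and 6.88 CPM in that order. These adjacent genes share 31.1% and 30.0% of their 50-base stretches. They were the 2 opposite genes among 18 measured genes of epithelial defence, of which 5 were higher in both pairs and 1 lower in both. Il18, a cytokine that epithelium makes, had the same arrangement at 61.1 CPM in that library and 19.1, 8.33 and 23.1 CPM in the others. It was the single opposite gene among 8 inflammatory cytokines, of which 6 were higher in both pairs.

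Several absorptive genes had their lowest values in the AOM/DSS library labelled knockout. Alpi, intestinal alkaline phosphatase, was at 24.2 and 89.6 CPM in untreated and AOM/DSS WT and at 32.1 and 0.537 CPM in the pair labelled knockout, 59.8-fold lower in that pair (37.1 to 103). Slc9a3, a sodium and proton exchanger, had 338, 731, 401 and 164 CPM in that order, and Apob, the protein of chylomicrons, 199, 548, 147 and 34.8 CPM. Acaa1b, a peroxisomal thiolase, stood at 16.4, 49.2, 20.9 and 5.78 CPM. Rbp2, which carries retinol in enterocytes, was at 2.26, 13.6, 14.8 and 0.537 CPM and Best2, an anion channel of goblet cells, at 3.09, 50.4, 39.4 and 13.1 CPM. Slc6a19, an amino acid transporter named after its values were seen, was opposite as well at 2.42, 8.44, 4.46 and 0.0631 CPM, the last from 2 counts (70.7-fold lower, 19.1 to 592). Of these 7 genes 5 had that library lowest and apart, and Rbp2 and Best2 did not. In the pair labelled knockout 20 of 22 colonocyte transport genes were lower, and in WT 4 were higher and 0 lower.

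Of 23 measured cytochrome P450 and steroid enzymes 4 were opposite in this direction, Hsd11b2, Cyp2d9, Cyp2c68 and Cyp2f2, the last named after its values were seen. Hsd11b2, which inactivates corticosterone, was at 148 and 589.8 CPM in untreated and AOM/DSS WT and at 369 and 31.2 CPM in the other pair. Cyp2d9 stood at 1.98, 20.8, 32.6 and 2.81 CPM and its neighbour Cyp2d10, which is in no list, at 6.78, 29.3, 82.9 and 4.07 CPM. Cyp2c68 was at 1.15, 4.49, 36.8 and 1.58 CPM and Cyp2f2 at 1.11, 5.14, 23.3 and 1.07 CPM. Adh1, an alcohol dehydrogenase in no list, stood at 74.9, 158, 990.2 and 57.7 CPM. These last 3 genes had the untreated library labelled knockout apart, as did Thbs4, a matrix protein, at 16.5, 34.3, 341 and 45.7 CPM. Of the 50-base stretches of Cyp2c68, Cyp2d10 and Cyp2d9, 43.3%, 35.8% and 21.8% occur in other genes.

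Mt1 and Gfap were the single opposite members of their lists. Mt1, a metal-binding protein, was at 21.1 and 93.6 CPM in untreated and AOM/DSS WT and at 122 and 37.5 CPM in the pair labelled knockout. Gfap, an intermediate filament of enteric glia, was at 8.81, 22.1, 4.69 and 0.568 CPM in the usual order, 1 of 15 measured genes of enteric neurons and glia, of which 14 were lower in the pair labelled knockout. Beside it, 17 of 17 smooth muscle contraction genes were lower in that pair, and the 5 smooth muscle markers, none at 0, summed to 6847 and 5343 CPM in WT and to 7079 and 1049 CPM in the other pair. Their part in the values of Gfap was not tested. Fam162a, a mitochondrial protein in none of the lists, stood at 138, 280.4, 72.5 and 26.5 CPM.

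Some opposite genes lay near each other on a chromosome. Of 108 placed genes of the first direction 28 lay within 500 kb of another, in 11 runs, and of 76 of the second 20 did, in 6 runs, shares that were not set against those of all measured genes. The run with the most members in the first direction held Ifit2, Ifit3, Gm14446, I830012O16Rik and Ifit1 on chromosome 19 from 34550550 to 34662981. Other runs held Slfn5, Slfn9, Slfn4 and Slfn3, or Oas2, Oas3 and Oas1a. Nearby members can share sequence, since at least 10% of the 50-base stretches recur in other genes for 21 of 107 genes of the first direction and 18 of 75 of the second.

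Membership at the limit turns on small differences. Just inside the first direction lay Phf11b, with log2 ratios of -2.40 in WT and 1.01 in the pair labelled knockout, and Hoxd11, with -1.01 and 1.77. Just outside lay Robo1 (-0.99 and 2.75) and Car3 (-1.41 and 0.99). On the other side Thbs4 (1.01 and -2.87) and Fam162a (1.01 and -1.42) were inside, and Myo1a (0.99 and -1.25) and H2-Oa (1.81 and -0.99) outside. Of the 109 and 78 genes, 46 and 40 were in a gene list.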

How the data were processed

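RNA of 4 colon libraries was extracted with TRIzol and prepared with the Ion Proton RNA-Seq kit, per the labels' protocols. The authors deposited whole-number read counts per gene symbol without normalization, with 0 columns of other samples. Per the submitters' processing notes the build was GRCm38 (mm10). For aligner, counter, annotation and strand, the sources used here give nothing, so overlapping and antisense genes may share reads. In 27 of 44788 rows the symbol had become a date, and none of these is an opposite gene.

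CPM were computed from TMM-adjusted library sizes by edgeR 4.0.16 in R 4.3.3. Folds are CPM ratios with exact 95% intervals (Clopper-Pearson, given both counts' sum), and a library at 0 was set to a floor of 3 counts. Promoters and positions came from RefSeq, 50-base stretches from GENCODE M21 transcripts, and figures from Python 3.11.15. The scripts were checked on simulated data. Genes and lists were chosen with earlier results of these data known. Named were Card9, the 12 largest differences per direction (without immunoglobulin segments, predicted genes and pseudogenes), up to 3 opposite genes per list, the 5 most abundant per direction and the genes at the 2-fold limit, and genes described with values outside this rule are marked in the text; a few genes the rule picked are not reported here. Alternatives were DESeq2 1.42.0 size factors, upper-quartile factors, library totals, pseudocounts of 0.5 and 5 CPM, count minimums of 200 or none, thinning to the smallest library, leaving out genes above 1% of a library, and 4-fold.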

Additional observations from a re-analysis of the deposited data

Results flagged for a closer look

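Every opposite gene differs between the labels by its rule: with 1 library per group, the WT pair moved one way and the pair labelled knockout the other, in 109 and 78 genes, and these differences were not tested. For the genes named here the difference of log2 ratios, labelled knockout minus WT, was as follows. Among interferon genes it was 6.90 for Usp18, 6.51 for Gbp6, 6.23 for Apol9b, 5.83 for Ifi44, 5.82 for Ifit2, 5.78 for Gbp3, 5.63 for Apol9a, 5.44 for Ifit3, 4.23 for Slfn4, 4.13 for Oasl2, 3.02 for Lgals3bp and 2.57 for Stat2. Rnf213 had 3.88 and Phf11b 3.41. Among lipoxygenases it was 7.84 for Alox15 and 5.42 for Alox12. Stem cell, Wnt and BMP genes had 5.83 (Tnfrsf19), 5.30 (Lgr5), 4.58 (Axin2), 3.65 (Bmp7), 2.73 (Bambi) and 2.68 (Ascl2). Mybl2 had 3.22, Uhrf1 2.55, Mcm5 2.51, Hoxd11 2.78 and Emr1 2.20.

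In the second direction B and plasma cell genes had -5.56 (Cr2), -5.37 (Cd79b), -4.20 (Cxcr5), -4.10 (H2-Ob) and -3.75 (Mzb1). Secreted and defence genes had -8.28 (Retnlb), -6.50 (Zg16), -6.22 (Saa2), -5.55 (Saa1), -3.07 (Tff3) and -3.00 (Il18). Absorptive and transport genes had -6.28 (Alpi), -5.53 (Rbp2), -5.17 (Best2), -3.49 (Apob), -3.22 (Acaa1b) and -2.40 (Slc9a3). Enzymes had -6.01 (Cyp2d9), -6.01 (Cyp2d10), -5.51 (Hsd11b2), -5.23 (Cyp2c68) and -5.15 (Adh1). The others were -3.88 (Thbs4), -3.78 (Mt1), -3.10 (Gfap) and -2.43 (Fam162a).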

How the results depend on the processing

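No named gene and no gene list with a median difference of at least 1 in size changed direction under any alternative run. For the named genes this was nearly fixed in advance, since the rule asked for 2-fold in opposite directions. Across the scalings the median difference over all measured genes was only -0.09 to 0.28. The counts of both directions were 105 to 138 and 64 to 92 across the scalings, the pseudocount of 0.5 CPM, thinning, no count minimum and leaving out abundant genes, against 109 and 78. A pseudocount of 5 CPM left 54 and 39 genes, all of them among the 109 and 78, and a minimum of 200 counts left 81 and 43. Requiring 4-fold in each pair left 12 and 18, of which 75% and 77.8% were crossed, while in 25% and 0% only that of AOM/DSS labelled knockout was set apart. Of the 56 genes the naming rule picked 14 missed the rule with 5 CPM, 9 with 200 counts, 4 under library totals, 3 each under upper-quartile factors and thinning, and 2 under DESeq2 size factors. Thbs4 did so under 5 alternatives, and Cxcr5, Fam162a, Hoxd11 and Phf11b under 3 each. Uhrf1 missed it under upper-quartile factors and 5 CPM, Slc9a3 under library totals alone. The median of stem and crypt genes was 1.16, and 0.78 with 5 CPM and 0.70 with 200 counts. No paired analysis was possible because each group has 1 library and no replicate, and leaving out a library ends the comparison. Depth limits genes of few counts, and counting intervals were wide for Alox15 and Cr2.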

Other observations

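The second direction also held genes of secreted proteins outside the lists, described after their values were seen. Spink3, a trypsin inhibitor, stood at 3.77 and 18.7 CPM in untreated and AOM/DSS WT and at 145 and 51.8 CPM in the pair labelled knockout. Sval1 was at 0.159, 9.17, 116 and 31.9 CPM in the same order and Ttr, the thyroid hormone carrier transthyretin, at 0.912, 11.1, 20.02 and 6.66 CPM. In these 3 genes untreated WT was set apart as the lowest library, as in Rdh16, Ighm and Best2. Plac9b had 0 counts in the AOM/DSS library labelled knockout. With that 0 set to 3 counts it was 28.7-fold lower there than in the untreated one, and the lower 95% limit was 22.6-fold. Of its 50-base stretches, however, 96.6% occur in Plac9a.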
